A study of Mus musculus with 3 samples.

Results

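The zinc-dependent metalloproteinase genes of the Mmp, Adam and Adamts families were followed across 3 RNA-seq libraries of mouse suprarenal aorta. They were chosen by symbol, as every entry in the 3 deposited comparisons whose gene name was Mmp, Adam or Adamts followed by digits and at most 1 letter. This rule found 11 genes among the 1238 entries listed in at least 1 comparison: *Mmp2*, *Mmp3*, *Mmp8*, *Mmp9*, *Mmp14*, *Mmp23*, *Adam8*, *Adam12*, *Adamts2*, *Adamts8*, and *Adamts12*. RefSeq holds 76 protein-coding mouse genes with such symbols, so 65 were not listed in any comparison and had no value to read. The listed genes were 6 of 23 Mmp genes, 2 of 34 Adam genes, and 3 of 19 Adamts genes.

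All animals were male apoE null mice on a C57BL/6 background, 12 weeks of age at pump surgery, so that the controls also lacked apolipoprotein E. The AngII AAA pool was made from suprarenal aortas with a dissecting abdominal aortic aneurysm (AAA), collected no later than 24 hours after diagnosis in animals infused with angiotensin II (AngII). The AngII No AAA pool came from animals infused with AngII in which no aneurysm was found, and the Saline pool from animals with saline pumps, both collected on day 10. Each library was a pool of RNA from the animals of 1 cohort, so there was 1 library per cohort. No spread between animals could be measured and no test was made. Aneurysm and collection time cannot be told apart in this design. Each file set a pair of libraries against each other and listed only entries with an unadjusted p-value under 0.05 by the authors. An entry that is not listed therefore has no value in that comparison. Levels are FPKM (sequenced fragments for each kilobase of a transcript, relative to all mapped fragments), which allow for transcript length and can be set side by side between genes.

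Matrix metalloproteinases (MMPs) are made as inactive proenzymes and together can cut most proteins of the extracellular matrix. ADAM proteins are membrane-bound relatives that release the outer part of other surface proteins, a step known as shedding, and ADAMTS proteins are secreted relatives that process procollagens and cut proteoglycans. In the aortic wall these enzymes are made by smooth muscle cells and fibroblasts and are brought in by neutrophils and macrophages, and tissue inhibitors of metalloproteinases (TIMPs) block them.

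The labelled tissue was checked against markers listed in the same files. Of 12 smooth muscle markers, 7 were listed within AngII AAA vs. AngII No AAA, all lower in the AngII AAA pool, with a summed level of 752 FPKM against 2525 FPKM in the AngII No AAA pool. Within AngII AAA vs. Saline, 2 of them were listed, both lower in the AngII AAA pool, and within AngII No AAA vs. Saline none was. Adrenal cortex markers, which belong to a neighbouring organ, were higher for 7 of 10 genes in the AngII AAA pool against either other pool (476 against 16.3 FPKM in AngII AAA vs. AngII No AAA). Skeletal muscle markers were lower in the AngII No AAA pool than in the Saline pool for 11 of 12 genes (192 against 909 FPKM), and lower in the AngII AAA pool than in the Saline pool for 5 of them. Platelet markers were higher in the AngII AAA pool for 7 of 10 genes against the AngII No AAA pool and for 6 against the Saline pool. Of these 7, *Ppbp* and *Tubb1* were lower in the AngII No AAA pool than in the Saline pool. Endothelial markers were listed for 1 of 12 genes, *Emcn*, in AngII AAA vs. Saline. The part of these tissues in the metalloproteinase values was not tested. In pooled tissue RNA, a change in the number of cells of a type cannot be told apart from a change in RNA per cell.

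The 11 genes fell into groups by the comparisons that listed them. *Mmp8*, *Mmp9*, *Adam8*, and *Adam12* were listed in both comparisons of the AngII AAA pool and were higher there each time. *Mmp14* was listed as higher in both comparisons with the Saline pool. *Mmp2*, *Mmp3*, *Mmp23*, *Adamts2*, and *Adamts12* were listed only within AngII No AAA vs. Saline, each of them higher in the AngII No AAA pool (though all but *Mmp3* had a lower ratio than the median of the listed fibroblast markers), and *Adamts8* only within AngII AAA vs. AngII No AAA, lower in the AngII AAA pool. No metalloproteinase gene was listed in all 3 comparisons.

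**Figure D1:**
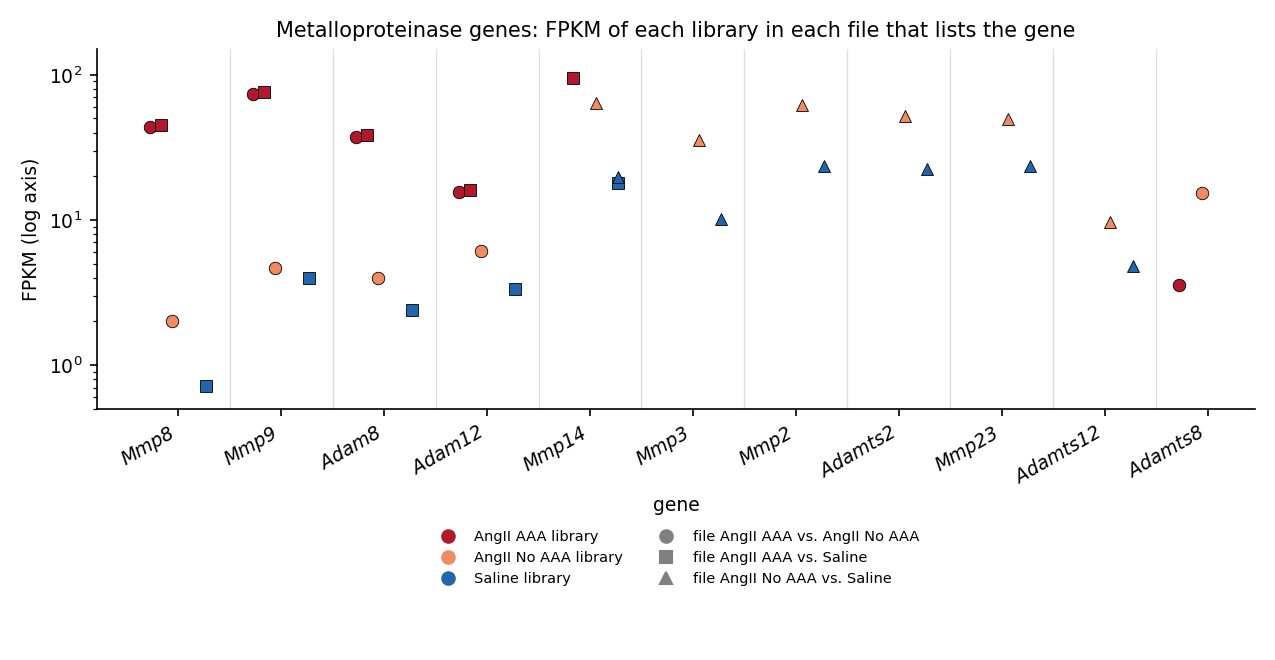
Levels of the 11 metalloproteinase genes in FPKM on a log axis, with colour for the library and point shape for the file the value was read from. The AngII AAA points of *Mmp8*, *Mmp9*, *Adam8*, and *Adam12* lie above those of both other libraries, and the 2 points of *Adamts8* are in the opposite order, at 3.57 and 15.3 FPKM.

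*Mmp8* encodes neutrophil collagenase, which is stored in neutrophil granules and cuts fibrillar collagens. In the files' coordinates (build mm9 per the submitters' processing notes) it lies at chr9:7558428-7568486. Within AngII AAA vs. AngII No AAA it stood at 43.4 FPKM in the AngII AAA pool against 2.03 FPKM in the AngII No AAA pool, and within AngII AAA vs. Saline at 44.9 FPKM and 0.712 FPKM. The AngII AAA pool was thus high and both other libraries were low. The log2 ratios were 4.42 and 5.98, or 21.4-fold and 63.0-fold, and *Mmp8* had the 12th largest finite ratio of 582 entries in the former comparison and the 7th of 671 in the latter. The *Mmp8* level in the Saline pool was the lowest among the 10 metalloproteinase genes with a value there, and a pseudocount of 1 FPKM lowered the log2 ratio against it from 5.98 to 4.74.

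*Mmp9* encodes gelatinase B, which cuts denatured collagen, type IV collagen, and elastin, and lies at chr2:164773718-164781349. It stood at 73.6 FPKM in the AngII AAA pool against 4.70 FPKM in the AngII No AAA pool, a log2 ratio of 3.97, or 15.7-fold. Against the Saline pool the values were 76.1 and 3.99 FPKM, a log2 ratio of 4.25, or 19.1-fold. The libraries without aneurysm were close to each other for this gene. *Mmp9* was not listed within AngII No AAA vs. Saline, and the ratio of these libraries taken through the AngII AAA pool was 1.22-fold.

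*Adam8* encodes a leukocyte surface protease that can release adhesion proteins from the cell surface, and lies at chr7:147164830-147178461. Its level was 37.4 FPKM in the AngII AAA pool and 3.99 FPKM in the AngII No AAA pool (log2 ratio 3.23, 9.37-fold). In the comparison with the Saline pool it was 38.6 FPKM against 2.38 FPKM (log2 ratio 4.02, 16.2-fold). *Adam8* thus had the same order of libraries as *Mmp8* and *Mmp9*, with a smaller ratio in each comparison.

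*Adam12* encodes meltrin alpha, which is known from mesenchymal cells and muscle precursors rather than from leukocytes, and lies at chr7:141074882-141416780. It stood at 15.5 FPKM in the AngII AAA pool against 6.10 FPKM in the AngII No AAA pool, a 2.55-fold difference that ranked 416th of 582 finite ratios. Against the Saline pool it stood at 16.1 and 3.36 FPKM, or 4.78-fold. Read across these comparisons, the levels stepped up from the Saline to the AngII No AAA to the AngII AAA pool. *Adam12* was not listed within AngII No AAA vs. Saline. The ratio of these libraries taken through the AngII AAA pool was 1.88-fold.

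Neutrophil and macrophage markers were higher in the AngII AAA pool, as this group of 4 genes was. So were platelet and adrenal cortex markers. Of 20 neutrophil markers, 9 were listed in each comparison of the AngII AAA pool, all higher there, with summed levels of 1344 against 105 FPKM in the AngII No AAA pool and of 1403 against 60.2 FPKM in the Saline pool. *Stfa2l1* among them was listed at 0 in both other libraries, and no other listed neutrophil marker was at 0. The median log2 ratios of the other 8 in each comparison were 4.36 and 4.64, beside 3.97 and 4.25 for *Mmp9*. The sets of 8 were not the same, as *Il1r2* was only in the former and *Retnlg* only in the latter. Of 18 monocyte and macrophage markers, 14 and 15 were listed, each of them higher in the AngII AAA pool, with summed levels of 1935 against 343 FPKM and of 2047 against 151 FPKM, and none was at 0. Their median log2 ratios were 2.32 and 3.48, which lie between those of *Adam12* and *Adam8* in both comparisons. The medians were 3.38 and 2.59 for platelet markers and 4.52 and 4.61 for adrenal cortex markers, so the pattern was not particular to leukocytes. Of all listed single-gene entries, 79.1% and 84.5% were higher in the AngII AAA pool. Within AngII No AAA vs. Saline, 1 neutrophil marker, *Lcn2*, and 9 macrophage markers were listed, each of them higher in the AngII No AAA pool. The part of any of these cells or tissues in the metalloproteinase levels was not tested.

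The same library had different FPKM values in different files, by a factor that hardly varied between entries. The AngII AAA pool was 0.968 times as high in AngII AAA vs. AngII No AAA as in AngII AAA vs. Saline (median of 384 shared entries), and the factors were 0.914 for the AngII No AAA pool over 102 entries and 0.915 for the Saline pool over 224 entries. A ratio of a pair of libraries could therefore also be taken through the third library, from the other 2 files. For 82 entries listed in all 3 files, the sum of ratios around the 3 libraries missed closure by 0.05 on the log2 scale (0.0455 for the lowest and for the highest entry), which is the size of the difference in scaling between files.

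Read in this way, the AngII No AAA level of *Mmp8* was 2.94-fold above the Saline level, that of *Adam12* 1.88-fold, that of *Adam8* 1.73-fold, and that of *Mmp9* 1.22-fold. All 4 ratios were above 1, none of the 4 genes was listed in the file of that comparison, and no test bears on these ratios. For *Mmp8* both levels were low, at 2.03 FPKM in the AngII No AAA pool and 0.712 FPKM in the Saline pool, each from its own file.

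**Figure D2:**
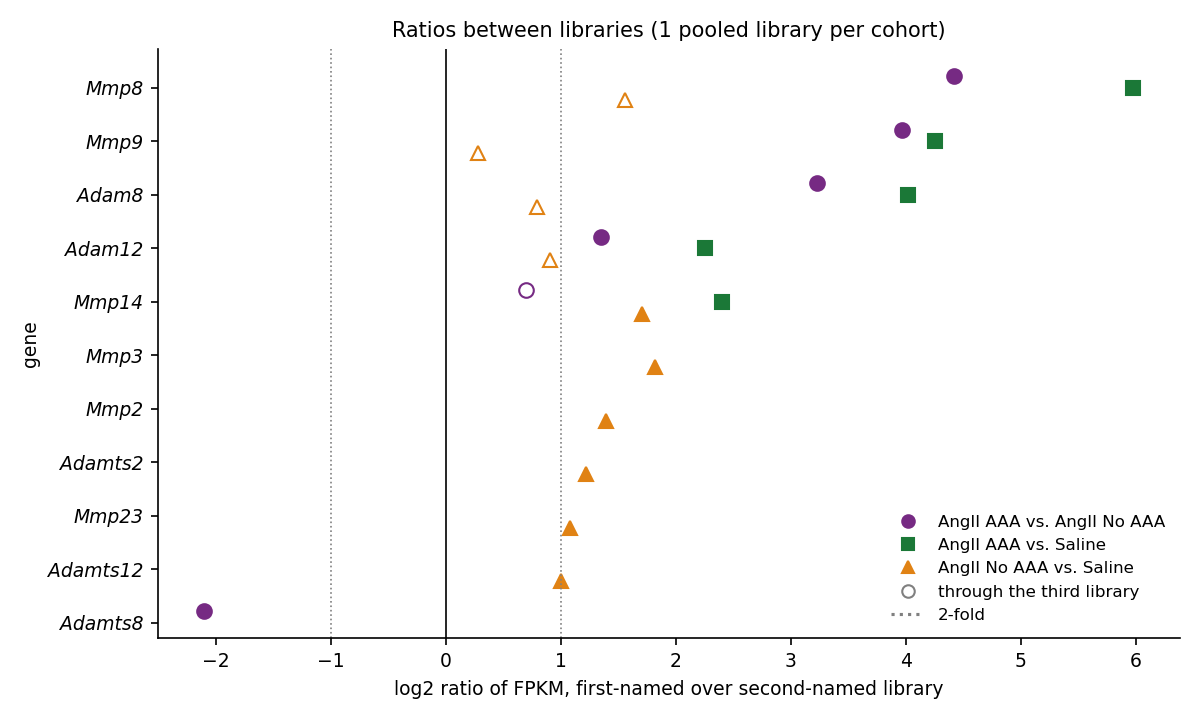
Log2 ratios of FPKM between libraries for each of the 11 genes. Filled points were read within 1 file and open points through the third library, and dotted lines mark 2-fold. The *Mmp8*, *Mmp9*, and *Adam8* ratios with the AngII AAA pool as numerator lie between 3.23 and 5.98, and the AngII No AAA vs. Saline ratios lie at 1.82 or below.

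*Mmp14* encodes the membrane-type metalloproteinase MT1-MMP, a cell surface collagenase that also activates the proenzyme of MMP-2, and lies at chr14:55050440-55060095. It stood at 95.1 FPKM in the AngII AAA pool and at 18.0 FPKM in the Saline pool, a log2 ratio of 2.40, or 5.28-fold. In AngII No AAA vs. Saline it stood at 64.0 and 19.7 FPKM, a log2 ratio of 1.70, or 3.26-fold. These comparisons share the Saline pool. Both AngII libraries were above the Saline pool for this gene, and it had the highest level among the 6 metalloproteinase genes with a value in the AngII AAA pool. The AngII AAA over AngII No AAA ratio taken through the Saline pool was 1.62-fold, and *Mmp14* was not listed in the file of that comparison.

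The enzyme that MT1-MMP activates was listed beside it. *Mmp2*, which encodes gelatinase A, a widespread product of fibroblasts and smooth muscle cells, lies at chr8:95351226-95377319 and stood at 62.1 FPKM in the AngII No AAA pool and at 23.7 FPKM in the Saline pool (log2 ratio 1.39, 2.62-fold). *Mmp3*, which encodes stromelysin-1, an enzyme that cuts proteoglycans and activates other MMPs, lies at chr9:7445821-7455974 and stood at 35.5 against 10.1 FPKM (log2 ratio 1.82, 3.52-fold). *Mmp3* had the largest ratio of the 6 metalloproteinase genes in this comparison and ranked 71st of 539 finite ratios. *Mmp23*, which encodes a membrane-anchored MMP without the usual hemopexin domain, lies at chr4:155024763-155027493 and stood at 49.9 against 23.6 FPKM (log2 ratio 1.08, 2.11-fold).

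The ADAMTS genes in this comparison were *Adamts2*, which encodes the procollagen N-proteinase that trims fibrillar procollagens, and *Adamts12*, which encodes an enzyme that cuts cartilage oligomeric matrix protein. *Adamts2* lies at chr11:50415586-50621075 and stood at 52.0 FPKM in the AngII No AAA pool and at 22.3 FPKM in the Saline pool (log2 ratio 1.22, 2.33-fold). *Adamts12* lies at chr15:10994544-11276622 and was the lowest of the group, at 9.67 and 4.82 FPKM (log2 ratio 1.00). It sat at the 2-fold line, and with a pseudocount of 1 FPKM its log2 ratio was 0.87.

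In the AngII No AAA pool of this comparison the order of levels was *Mmp14*, *Mmp2*, *Adamts2*, *Mmp23*, *Mmp3*, and *Adamts12*, from 64.0 down to 9.67 FPKM. In the Saline pool it was *Mmp2*, *Mmp23*, *Adamts2*, *Mmp14*, *Mmp3*, and *Adamts12*, from 23.7 down to 4.82 FPKM. With 1 library each, it could not be said whether neighbours in these orders differed. Apart from *Mmp14*, these genes had no AngII AAA value to read.

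Fibroblast markers were also higher in the AngII No AAA pool, where 60.7% of all listed single-gene entries were over 2-fold higher. The 9 listed macrophage markers were higher there too, at a median log2 ratio of 1.68. Of 12 fibroblast markers, 4 were listed within AngII No AAA vs. Saline (*Col1a2*, *Pi16*, *Dpt*, and *Lum*). Each of them was higher in the AngII No AAA pool, at a summed 912 against 262 FPKM and a median log2 ratio of 1.46, and none was at 0. The ratios of *Mmp3* and *Mmp14* were above the fibroblast median and those of *Mmp2*, *Adamts2*, *Mmp23*, and *Adamts12* below it. The direction of these last 4 genes therefore turned when the ratio was taken relative to the fibroblast markers. On that scale the log2 ratio was 0.35 for *Mmp3* and 0.24 for *Mmp14*, both under 2-fold. Fibroblast markers that were not listed had no value, so this reference holds only markers under the p-value limit. The turn in direction therefore depends on which markers were listed. The part of fibroblasts in these values was not tested. Within AngII AAA vs. AngII No AAA the listed fibroblast marker was *Pi16*, lower in the AngII AAA pool, and within AngII AAA vs. Saline it was *Col3a1*, higher there.

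*Adamts8* was the single metalloproteinase gene listed as lower in the AngII AAA pool. It encodes a secreted protease with thrombospondin repeats that is known as an inhibitor of blood vessel growth, and lies at chr9:30750147-30770443. It stood at 3.57 FPKM in the AngII AAA pool against 15.3 FPKM in the AngII No AAA pool, a log2 ratio of -2.10, or 4.28-fold lower in the former. It was the 22nd lowest of 582 finite ratios. The 7 smooth muscle markers listed in that comparison had a median log2 ratio of -1.74, from -2.26 to -1.47, a range that held the *Adamts8* ratio, and none of them was at 0. Smooth muscle markers that were not listed had no value, and the smallest finite fold listed there was 2.30. Smaller changes could therefore not enter this range. The part of smooth muscle in the *Adamts8* value was not tested.

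Counted against a 2-fold line, 4 of the 5 metalloproteinase genes listed within AngII AAA vs. AngII No AAA were higher and 1 was lower in the AngII AAA pool, where 79.1% and 20.9% of the 598 listed single-gene entries were. Within AngII AAA vs. Saline 5 of 5 were higher, where 84.5% of 709 entries were. Within AngII No AAA vs. Saline 6 of 6 were higher and none lower, where 60.7% and 32.9% of 557 entries were. Relative to the listed fibroblast markers, 4 of these 6 turned to lower and none stayed past 2-fold. Those markers had themselves passed the p-value limit, all as higher, so this turn depends on the listing. The listing itself already held mostly entries past 2-fold, with the smallest finite fold at 2.30, 2.93, and 1.91 in these comparisons, so these counts are near the background in the comparisons of the AngII AAA pool and describe no more than which genes were listed. The median log2 ratio of the metalloproteinase genes was 3.23 within AngII AAA vs. AngII No AAA, beside 1.63 over all finite entries. It was 4.02 beside 2.26 within AngII AAA vs. Saline and 1.31 beside 1.16 within AngII No AAA vs. Saline.

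**Figure D3:**
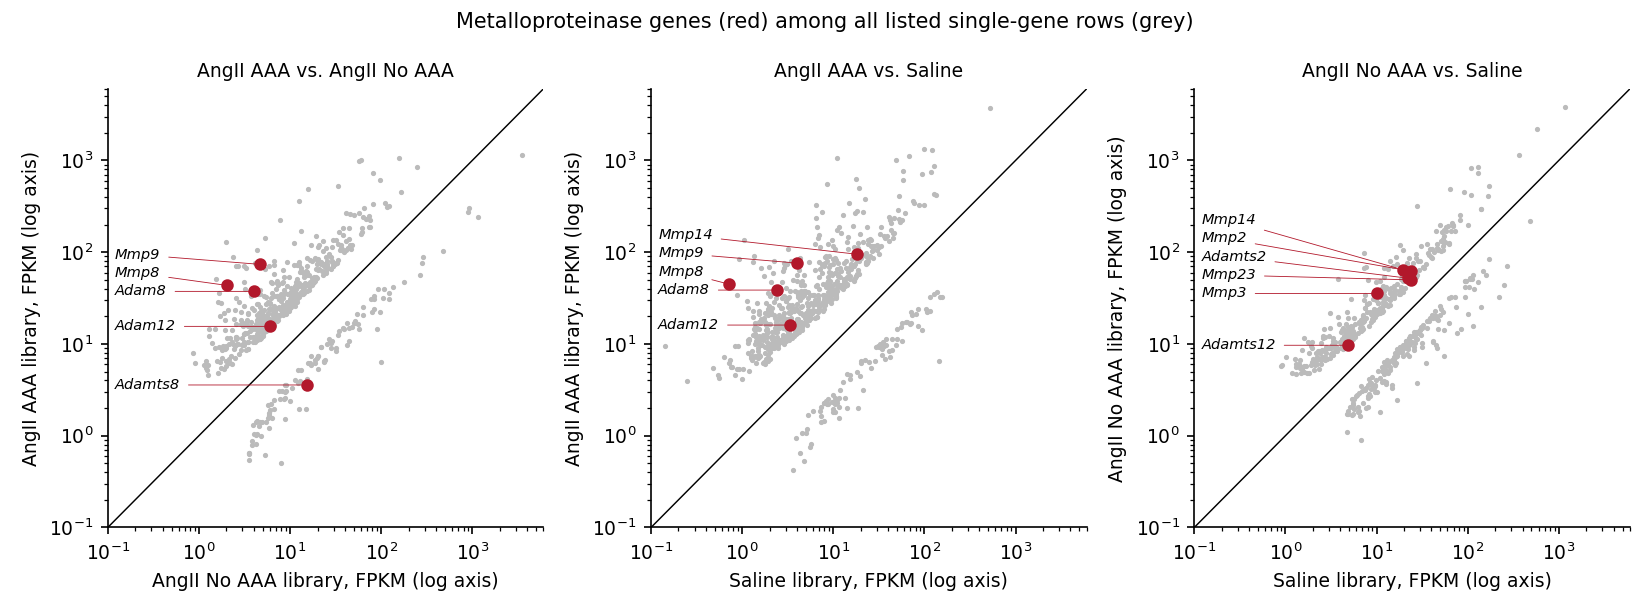
FPKM of the 2 libraries of each comparison on log axes, with grey points for all listed single-gene entries above 0 in both libraries, red points for the metalloproteinase genes, and a black line of equal levels. *Mmp8*, *Mmp9*, and *Adam8* lie far above the line of equal levels at 4.70 FPKM or less on the horizontal axis, and the 6 genes of AngII No AAA vs. Saline lie closer to it, at ratios from 1.00 to 1.82 on the log2 scale.

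*Mmp3* and *Mmp8* are neighbours. The files place them on chromosome 9 with 102454 bases between them, and in RefSeq's gene order they belong to a run of 10 MMP genes with no other protein-coding gene between them: *Mmp13*, *Mmp12*, *Mmp1b*, *Mmp3*, *Mmp1a*, *Mmp10*, *Mmp8*, *Mmp27*, *Mmp20*, and *Mmp7*. Of these 10 genes only *Mmp3* and *Mmp8* were listed, and in different comparisons. *Mmp8* was listed where the AngII AAA pool was involved and *Mmp3* where it was not. *Adam8* and *Adam12* share chromosome 7 but lie 5748050 bases apart.

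The promoters of *Mmp3* and *Mmp8* are shown because these neighbours were listed in different comparisons, and that of *Adam8* because its libraries had the same order as those of *Mmp8*. The windows are RefSeq sequences of build GRCm38.p6, 250 bases before to 50 after the annotated start, and 7 of the 11 genes had one. They are at chr9:7445572-7445871 (plus strand), chr9:7558179-7558478 (plus strand), and chr7:139992513-139992812 (minus strand). Capitals mark matches on either strand, which do not overlap each other. The AP-1 motif was searched as TGAGTCA. The letters AGGAAG stood for the ETS factors. The letters TATAAA stood for the TATA box. Matches are of letters only, and whether any of them is a working site at its position was not tested.
Mmp3: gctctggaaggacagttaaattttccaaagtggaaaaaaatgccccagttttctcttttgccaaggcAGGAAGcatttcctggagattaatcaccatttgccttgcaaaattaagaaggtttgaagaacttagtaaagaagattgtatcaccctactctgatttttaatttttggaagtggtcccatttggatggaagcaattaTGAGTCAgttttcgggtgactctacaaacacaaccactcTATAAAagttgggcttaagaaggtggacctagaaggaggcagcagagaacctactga
Mmp8: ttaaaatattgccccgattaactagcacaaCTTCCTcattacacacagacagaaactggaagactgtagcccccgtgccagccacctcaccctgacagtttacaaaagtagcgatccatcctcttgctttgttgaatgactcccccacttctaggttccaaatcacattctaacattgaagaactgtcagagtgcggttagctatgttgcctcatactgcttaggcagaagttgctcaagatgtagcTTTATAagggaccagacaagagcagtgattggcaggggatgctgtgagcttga
Adam8: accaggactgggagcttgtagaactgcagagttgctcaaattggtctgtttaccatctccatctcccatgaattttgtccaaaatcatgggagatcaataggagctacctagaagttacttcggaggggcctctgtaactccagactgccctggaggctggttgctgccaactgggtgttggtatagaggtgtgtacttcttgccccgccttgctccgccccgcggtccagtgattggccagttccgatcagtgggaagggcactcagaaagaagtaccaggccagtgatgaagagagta

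The *Mmp3* window held each motif, with the AP-1 match starting at position -46 from the annotated start, the ETS match at -183, and the TATA match at -7. The *Mmp8* window held a TATA match at -3 and an ETS match at -220, both on the opposite strand, and no AP-1 match. The *Adam8* window held none of these motifs. Among all 32851 promoters of this length, 5.20% held the AP-1 letters, 35.4% the ETS letters, and 13.6% the TATA letters. Of the other windows, those of *Adamts12* (2 matches) and *Mmp14* (1 match) held the ETS letters, and those of *Adamts2* and *Mmp23* held none of the motifs. The share of G and C was 40.0% for *Mmp3*, 46.0% for *Mmp8*, and 52.3% for *Adam8*, beside a median of 52.7% over all promoters and 77.3% for *Adamts2*.

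The entries whose levels followed each gene most closely over the 3 libraries were found among 540 single-gene entries with a value in every library. Distance was taken between pairs of log2 ratios (AngII AAA over AngII No AAA and AngII No AAA over Saline). A ratio that was not listed was taken through the third library. This held for the latter ratio of *Mmp8*, *Mmp9*, *Adam8*, and *Adam12* and the former of *Mmp14*. Such ratios carry the scaling difference of 0.0455, so distances of 0.04 lie within it. For *Mmp9* the nearest was *Pf4*, which encodes platelet factor 4, at a distance of 0.12, followed by *Slfn4* and *Clec4n*. For *Mmp8* they were *Clec4d*, a C-type lectin of neutrophils and monocytes, at 0.37, then *Spp1*, which encodes osteopontin, and *Star*, which encodes a steroid transport protein of the adrenal cortex, at 0.76. *Adam8* was nearest to *Slfn1* at 0.21, *Srgn*, which encodes the granule proteoglycan serglycin, and *Cd300lf*. *Adam12* was nearest to *Eps8* at 0.04, *Baz1a*, and *Dab2*, and *Mmp14* to *Mcm5* at 0.04, *Lyve1*, and *Gda*. Among the 5 metalloproteinase genes themselves, the closest pair was *Adam8* and *Mmp9* at 0.90 and the farthest *Mmp14* and *Mmp8* at 3.73. A distance over 3 libraries rests on 2 ratios and is a description of these pools.

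Other genes of the metalloproteinase system were read from gene lists, and counts from these lists are to be set beside the background. Of all listed single-gene entries, 79.1% were over 2-fold higher and 20.9% over 2-fold lower within AngII AAA vs. AngII No AAA. The shares were 84.5% and 15.5% within AngII AAA vs. Saline, and 60.7% and 32.9% within AngII No AAA vs. Saline. Of 10 inhibitors, the 4 TIMP genes among them, *Timp1* was the single one listed, and only within AngII AAA vs. Saline. It stood at 325 FPKM in the AngII AAA pool and at 6.52 FPKM in the Saline pool, a log2 ratio of 5.64, or 49.8-fold. *Timp1* encodes a secreted inhibitor of most MMPs, and its level in the AngII AAA pool exceeded that of each of the 6 metalloproteinase genes with a value there. *Timp1* overlaps *Syn1*, which is on the opposite strand, and *Adam8*, *Adamts2*, and *Adamts8* overlap antisense transcripts. *Adam12* overlaps *Gm23631*, *Gm19514*, and *A130023I24Rik*, and *Adam8* overlaps *Mir7062*, on their own strand. Whether the counting used strand is not given in the sources used here, so reads of the opposite-strand partners cannot be told apart, and strand would not separate those on the same strand. *Timp1* had no AngII No AAA value to read.

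Of 7 ADAMTS-like genes and relatives, which resemble ADAMTS proteins but have no protease domain, 3 were lower in the AngII AAA pool than in the AngII No AAA pool. *Adamtsl2* stood at 1.56 against 6.39 FPKM, *Adamtsl5* at 6.26 against 18.7 FPKM, and *Thsd4* at 7.30 against 20.0 FPKM. Their log2 ratios of -2.03, -1.58, and -1.46 had the sign of that of *Adamts8*. *Thsd4* and *Adamtsl5* were also lower in the AngII AAA than in the Saline pool, at log2 ratios of -2.19 and -1.63. Within AngII No AAA vs. Saline, *Adamtsl1* and *Adamtsl2* were higher in the AngII No AAA pool, at 8.44 against 3.72 and 6.99 against 3.09 FPKM. *Adamtsl2* was thus highest in the AngII No AAA pool.

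Of 14 genes for activators of MMPs and the plasmin system, 3 were higher in the AngII No AAA than in the Saline pool and 2 in the AngII AAA than in the Saline pool. *Plaur*, the receptor of urokinase, stood at 26.7 FPKM in the AngII AAA pool against 2.50 FPKM in the Saline pool, and, in the other comparison with Saline, at 12.0 FPKM in the AngII No AAA pool against 2.74 FPKM. The ratio was larger with the AngII AAA pool. *Plat*, which encodes tissue plasminogen activator, was listed only within AngII No AAA vs. Saline, at 33.2 against 14.8 FPKM. *Pcsk6*, a proprotein convertase, was lower in the AngII AAA than in the AngII No AAA pool, at 5.16 against 13.3 FPKM.

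Of 23 genes for other metalloproteinases and their relatives, 4 were higher in the AngII No AAA than in the Saline pool. They were *Cpxm1* (35.0 against 9.07 FPKM), *Cpxm2* (18.2 against 6.81 FPKM), *Bmp1* (48.5 against 19.4 FPKM), and *Anpep* (34.6 against 15.3 FPKM). *Bmp1* encodes the procollagen C-proteinase, which trims the opposite end of the procollagens that ADAMTS2 trims, and its log2 ratio of 1.32 was near the 1.22 of *Adamts2*. *Cpxm1* was also higher in the AngII AAA than in the Saline pool (31.6 against 8.30 FPKM), and *Cpxm2* was lower in the AngII AAA than in the AngII No AAA pool (6.27 against 16.7 FPKM).

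Of 21 proteases of other classes that degrade matrix, 5 were higher in the AngII No AAA than in the Saline pool, 3 in the AngII AAA than in the Saline pool, and 1 in the AngII AAA than in the AngII No AAA pool. The last was *Ctss*, the cysteine protease cathepsin S, an elastase of macrophages, at 184 against 37.8 FPKM. *Ctss* was listed in all 3 comparisons and stood at 190 against 11.6 FPKM within AngII AAA vs. Saline and at 41.4 against 12.7 FPKM within AngII No AAA vs. Saline. *Ctsl* and *Ctsh* were higher in both AngII libraries than in the Saline pool, with log2 ratios from 1.08 to 1.93. *Ctsk* and *Htra3* were higher in the AngII No AAA than in the Saline pool, and *Htra1* was lower in the AngII AAA than in the AngII No AAA pool, at 39.7 against 106 FPKM.

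**Figure D4:**
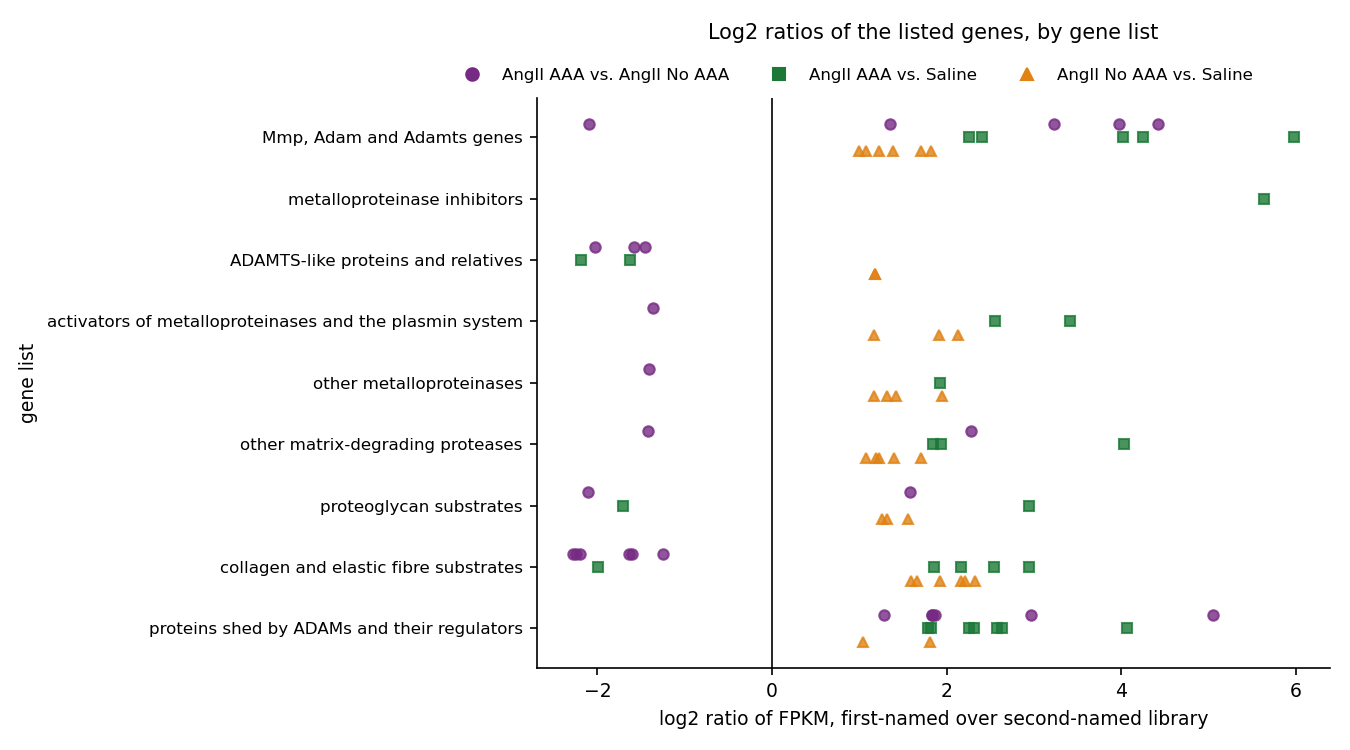
Log2 ratios of FPKM for the listed genes of each list, with point shape and colour for the comparison. The ADAMTS-like genes and the collagen and elastic fibre substrates lie below 0 within AngII AAA vs. AngII No AAA and above 0 within AngII No AAA vs. Saline, and the shed proteins lie above 0 throughout.

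The substrates of these enzymes were listed too. Of 22 collagen and elastic fibre genes, 6 were lower in the AngII AAA than in the AngII No AAA pool, among them *Col4a3* (0.786 against 3.80 FPKM), *Eln* (242 against 1144 FPKM), *Mfap4* (104 against 476 FPKM), and *Col4a6* (2.50 against 7.79 FPKM). Another set of 6 was higher in the AngII No AAA than in the Saline pool, led by *Col1a2* at 456 against 91.3 FPKM and *Col5a2* at 70.0 against 15.1 FPKM. Within AngII AAA vs. Saline, 4 were higher in the AngII AAA pool, led by *Col3a1* at 717 against 93.2 FPKM, and *Col4a6* was lower. *Mfap4* was in both of the sets of 6 and was thus highest in the AngII No AAA pool, as was *Adamtsl2*.

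Of 15 proteoglycan genes, *Vcan*, which encodes versican, a substrate of several ADAMTS proteases, was listed in all 3 comparisons. It stood at 51.8 against 17.4 FPKM within AngII AAA vs. AngII No AAA, at 53.5 against 6.96 FPKM within AngII AAA vs. Saline, and at 19.0 against 7.61 FPKM within AngII No AAA vs. Saline, and thus stepped up from the Saline to the AngII AAA pool. *Fmod*, which encodes fibromodulin, was lower in the AngII AAA pool than in both others. *Comp*, which encodes the cartilage oligomeric matrix protein cut by ADAMTS12, stood at 15.1 against 5.12 FPKM within AngII No AAA vs. Saline, and *Lum* at 110 against 45.8 FPKM.

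Of 25 genes for proteins that ADAMs shed, or that regulate shedding, 6 were higher in the AngII AAA than in the AngII No AAA pool, 7 in the AngII AAA than in the Saline pool, and 2 in the AngII No AAA than in the Saline pool. None was listed as lower. Of all listed single-gene entries, 79.1%, 84.5%, and 60.7% were over 2-fold higher in these comparisons, so the counts are near the background for the AngII AAA pool. *Il1r2*, the decoy receptor of interleukin-1, stood at 51.0 against 1.54 FPKM within AngII AAA vs. AngII No AAA, and is also on the list of neutrophil markers. *Csf1r*, *Tnfrsf1b*, *Cd44*, and *Il6ra* were higher in the AngII AAA pool in both of its comparisons, with log2 ratios from 1.29 to 2.58, and *Csf1r* is also on the list of macrophage markers. *Cxcl16* and *Tnfrsf1a* were higher than in the Saline pool in both AngII libraries.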

How the data were processed

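RNA-seq was read for 3 pooled suprarenal libraries, 1 per cohort, grouped by the sample titles. The submitters' processing notes name build mm9, FastQC (read quality), HISAT2 (alignment), Cufflinks (assembly), and Cuffdiff (versions and annotation not given in the sources used here). The authors deposited FPKM values of 2 libraries per comparison, scaled separately in each file, and kept entries with an unadjusted p-value under 0.05, which was checked in all 600, 715, and 564 entries. The files also hold the authors' log2 fold changes, test statistics, p-values, and significance calls, which were not used.

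Log2 ratios were computed within a file with no pseudocount, on entries of a single gene. No test was possible with 1 library per cohort. FPKM does not give the reads behind a value, so the precision of each value is unknown. The series description gives 35 to 43 M reads per library. Coordinates are printed as deposited. The named genes are all that match the symbol rule, the 3 nearest entries by pattern, and up to 4 genes per list and comparison with the largest ratio, plus others chosen after their values were seen (*Il6ra*, and *Mfap4*, *Ctsh*, *Cd44*, *Tnfrsf1a*, and *Tnfrsf1b* in 1 comparison each). The genes, the 16 lists, and the alternatives were chosen with earlier results of these data known. Some genes of these lists are counted but not reported here by name. The calculations were tested on simulated data. Python 3.11.15, pandas 2.3.3, and numpy 2.4.6 were used.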

Additional observations from a re-analysis of the deposited data

How the results depend on the processing

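The number of metalloproteinase genes past 2-fold stayed within 1.5 times its value in every comparison with a fold of 1.5, a pseudocount of 1 FPKM, a minimum of 1 or 5 FPKM in the higher library, or entries of a single gene only. With a fold of 4 it was 0 instead of 6 in AngII No AAA vs. Saline, and 4 and 5 in the others. Read through the third library, it was 0 within AngII AAA vs. AngII No AAA (of 1 gene, *Mmp14*) and 1 within AngII No AAA vs. Saline (of 4 genes), which are other genes than those listed, and no gene could be read this way within AngII AAA vs. Saline. For the same reason no single log2 ratio could be compared with its value through the third library. A pseudocount of 1 FPKM moved all 16 log2 ratios towards 0 and reversed none. Taken relative to the median of the listed smooth muscle, endothelial, and fibroblast markers, 12 of the 16 log2 ratios kept their sign, but not their size. The median was -1.78 over 8 markers within AngII AAA vs. AngII No AAA and -0.35 over 4 within AngII AAA vs. Saline. It was 1.46 over 4 within AngII No AAA vs. Saline, where the markers were all fibroblast genes. Only markers under the p-value limit had a value, so these medians depend on the listing. In the last comparison the sign turned for *Mmp2* (-0.073), *Adamts2* (-0.24), *Mmp23* (-0.38), and *Adamts12* (-0.46), since their ratios were below the median of the markers. *Mmp14* went from 1.70 to 0.24 and *Mmp3* from 1.82 to 0.35 there. Within AngII AAA vs. AngII No AAA, *Adamts8* went from -2.10 to -0.31 and *Adam12* from 1.35 to 3.13. No paired analysis was possible because each cohort had 1 library. The reads behind each value are unknown, which limits low levels most, such as that of *Mmp8* in the Saline pool.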
